A study of Mus musculus with 20 samples.

Results

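The genes described here are 37 mouse genes of the hypoxia response and of glycolysis, listed by name, out of 52783 genes in the count table. All 37 were found in the table by symbol. They comprise 3 genes of glucose uptake and phosphorylation, 8 of upper glycolysis, 6 of lower glycolysis, 3 of pyruvate and lactate handling, 4 subunits or sensors of the hypoxia-inducible factors (HIF), 2 carbonic anhydrases, 2 mitochondrial genes, 3 collagen and disulphide enzymes and 6 genes of signalling and stress. Glycolysis turns glucose into pyruvate in the cytosol and yields ATP without oxygen, and lactate dehydrogenase can then turn pyruvate into lactate. When oxygen is scarce, the prolyl hydroxylases that mark HIF alpha subunits for destruction slow down, and the alpha subunits pair with ARNT and switch on genes of glucose uptake, glycolysis, lactate export, pH control and mitophagy. Solid tumours often contain poorly perfused regions, and both carcinoma cells and myeloid cells such as neutrophils and macrophages are known to use this programme.

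RNA was sequenced from immune (CD45+) and non-immune (CD45−) cells sorted from tumours of 66cl4 and 67NR, mouse mammary carcinoma lines of the 4T1 family, of which 66cl4 tumours metastasise and 67NR tumours do not. The hosts were female BALB/cJ mice with an intact immune system and no recorded treatment, and each was injected in the mammary fat pad with 1000000 cells of 1 line. Each tumour was represented by 5 mice and each mouse gave 1 library per gate, so that the 20 libraries form 4 groups of 5. Each tumour type rests on a single cell line, and the CD45− gate takes carcinoma cells together with stromal cells of the host.

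Total counts per library ranged from 12959951 to 28080226. Ptprc, the gene of CD45, had 15890 to 28449 normalised counts (counts divided by the size factor of the library) in the CD45+ libraries and 10.6 to 473 in the CD45− libraries. For 66cl4 animals 5 and 6 the title and the recorded cell type name opposite gates. These 4 libraries were grouped by title, and their Ptprc counts of 17697 and 20442 in CD45+ and of 138 and 40.4 in CD45− lie with the gate of the title. Summed over 3 leukocyte genes, the CD45− libraries held 0.551% of the CD45+ level in 66cl4 against 1.68% in 67NR tumours. For 3 mast cell genes these shares were 0.914% and 26.8%. The mast cell sum ran from 0 to 40.9 normalised counts in 66cl4 CD45− and from 292 to 13540 in 67NR CD45− libraries. Summed over 7 fibroblast genes, the CD45+ libraries held 6.09% and 11.7% of the CD45− level. The 5 epithelial and carcinoma genes summed to 6057 to 6843 normalised counts in 66cl4 CD45− and to 120 to 379 in 67NR CD45− cells. Nearly all of the 66cl4 sum was Krt8 and Krt18, while Epcam (2.5 to 25.5 against 15.3 to 65.6), Krt14 (6.64 to 27.6 against 0 to 12.8) and Cdh1 (15 to 24.4 against 17.4 to 64.1) were low in both tumours.

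Genes of glycolysis and the hypoxia response were higher in the CD45+ cells of 66cl4 than of 67NR tumours. All 37 were tested, and 22 were called higher and 0 lower by edgeR's quasi-likelihood test, where a call needed an adjusted p under 0.05 and a log2 fold change above 1 or below −1. Among all 14676 genes tested, 5.01% were called higher and 6.82% lower. With no fold threshold, 29 of the 37 passed, each of them higher, against 22.2% of all genes in either direction. The median log2 fold change of the 37 genes was 1.05, against 0.01 over all genes tested. Of the 37 genes, 35 had a value above 0 and only Adm and Ddit4 a value below 0. In 23 of the 37 no 67NR library reached the lowest 66cl4 library, which held for 7.11% of all genes tested. Adm was called lower with DESeq2 (−1.20, adjusted p = 0.0371), with all 20 libraries in the edgeR fit (−1.17, adjusted p = 0.0214) and without 67NR CD45+ animal 6 or 7 (−1.40 and −1.45). A bulk library cannot tell a change in the number of cells of a type from a change in RNA per cell.

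The CD45+ populations also differed in their cell markers. The 5 neutrophil genes (S100a8, S100a9, Csf3r, Cxcr2 and Retnlg) were all called higher in 66cl4, with log2 fold changes of 1.43 to 2.32, and their sum was 43574 to 123912 normalised counts in 66cl4 against 6971 to 51053 in 67NR. The 3 mast cell genes and the 3 NK cell genes were all called lower in 66cl4, with log2 fold changes of −3.97 to −2.97 and of −2.71 to −2.07. Of 7 macrophage and monocyte genes 0 were called higher and 2 lower, and their sums were 51971 to 75987 in 66cl4 against 65088 to 96599 in 67NR. Of the remaining lists, 2 epithelial genes were called higher, 3 of 7 fibroblast genes, 1 endothelial, 1 pericyte and both tested erythroid genes were called lower, and the 3 B cell genes had log2 fold changes of 2.92 to 3.06 that were not called. No T cell, pan-leukocyte or proliferation gene was called. The part of these differences in the result for the 37 genes was not tested. Without 66cl4 animals 5 and 6, which leaves 3 against 5 libraries, 9 of the 22 genes were called, and 521 of 15257 genes overall were called higher. These 9 were Pfkl, Aldoa, Pgk1, Pgam1, Pdk1, Slc16a3, Epas1, Ndrg1 and Ankrd37.

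**Figure D1:**
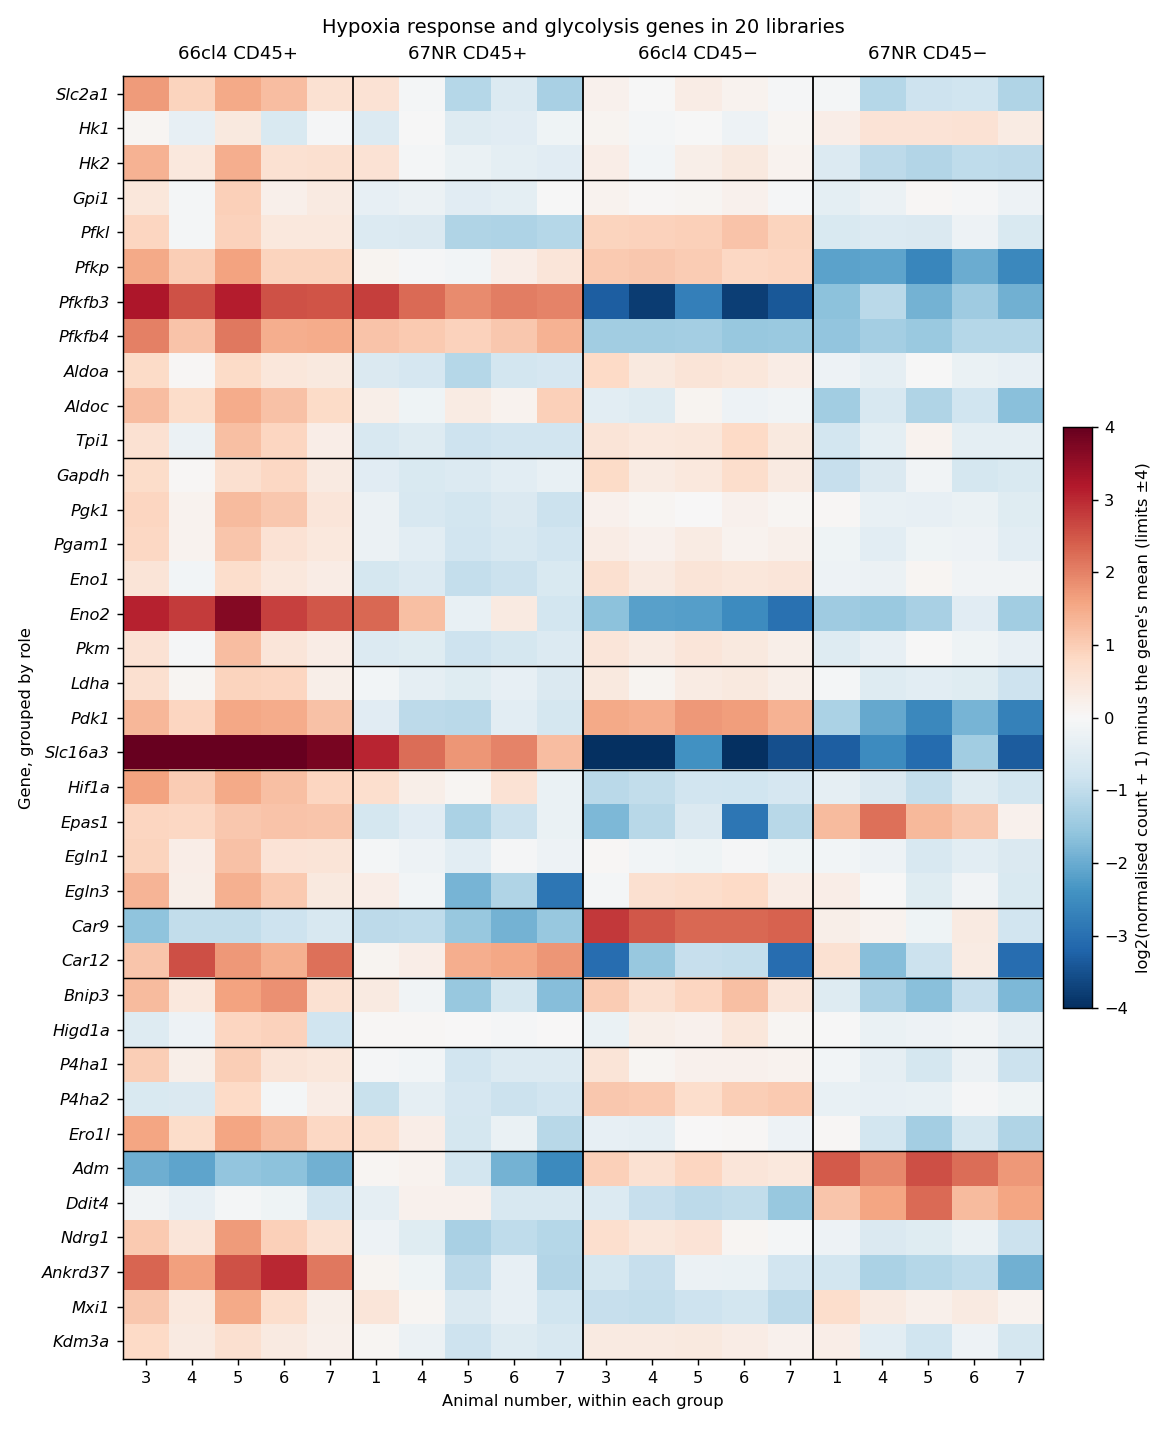
Heat map of the 37 genes (rows, grouped by role) in the 20 libraries (columns, by group and animal number), coloured by log2(normalised count + 1) minus the mean of the gene, with colours capped at the limits of the scale. The 66cl4 CD45+ columns are red for most glycolytic enzymes, and there animal 5 has the highest level of its group for 23 genes and animal 4 the lowest for 23. Pfkfb3 and Slc16a3 separate the CD45+ from the CD45− columns, and Eno2 does so within 66cl4 only.

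In CD45− cells most of the same genes were also higher in 66cl4 tumours, with calls in both directions. Of the 35 genes tested, 8 were called higher and 5 lower in 66cl4, against 13.2% and 18.9% of all 14844 genes tested. Eno2 and Car12 were removed by the filter on low counts, and with no filter 6 genes rather than 5 were called lower. With no fold threshold 26 were higher and 6 lower, and 67.4% of all genes passed in either direction. The median log2 fold change of the 35 genes was 0.67, against −0.01 over all genes tested. Library ranges did not overlap for 24 of the 35, 18 of them higher and 6 lower in 66cl4, against 25.8% and 27.1% of all genes tested. The genes called higher were Hk2, Pfkl, Pfkp, Gapdh, Pdk1, Car9, Bnip3 and P4ha2, and those called lower were Pfkfb3, Epas1, Adm, Ddit4 and Mxi1. Among the CD45− libraries, all 3 pericyte genes and 4 of 5 endothelial genes were called lower in 66cl4, as were the 3 mast cell genes, 4 of 7 fibroblast and 2 of 3 leukocyte genes. Of the 5 epithelial genes, Krt8 and Krt18 were called higher and Epcam lower. Also called lower were 2 of 5 neutrophil genes, 3 of 7 macrophage and monocyte genes and the 1 T cell gene tested. Called higher were 1 B cell gene, the 1 NK cell gene tested and 1 proliferation gene. The part of these cells in the result was not tested.

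Of the 22 genes called higher in CD45+ cells, 6 were also called higher in CD45− cells, 2 were called lower there (Epas1 and Mxi1), 13 were not called and 1 was not tested. Whether the tumour effect differed between the gates was tested over the 20 libraries as an interaction, with an adjusted p under 0.05. It passed for 19 of the 37 genes, with a value above 0 (66cl4 over 67NR more positive in CD45+ than in CD45− cells) for 16 and below 0 for 3 (Pfkp, Pdk1 and Car9). A value above 0 is not always a larger change in CD45+ cells, since Ddit4, Pfkfb3, Epas1, Mxi1 and Hk1 had the larger absolute log2 fold change in CD45− cells, where they were lower in 66cl4. Over all 16453 genes tested the shares were 21.9% and 21.2%. The median of the interaction was 0.53 on the log2 scale for the 37 genes and 0.03 for all genes tested. With an absolute log2 value over 1 as well, 12 of the 37 passed. Over 26 alternative fits the interaction was lost in 19 for Aldoa, 16 for Eno1, 10 for Pfkfb4, 8 for Egln1, 5 for Ndrg1 and 3 for Pgam1.

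**Figure D2:**
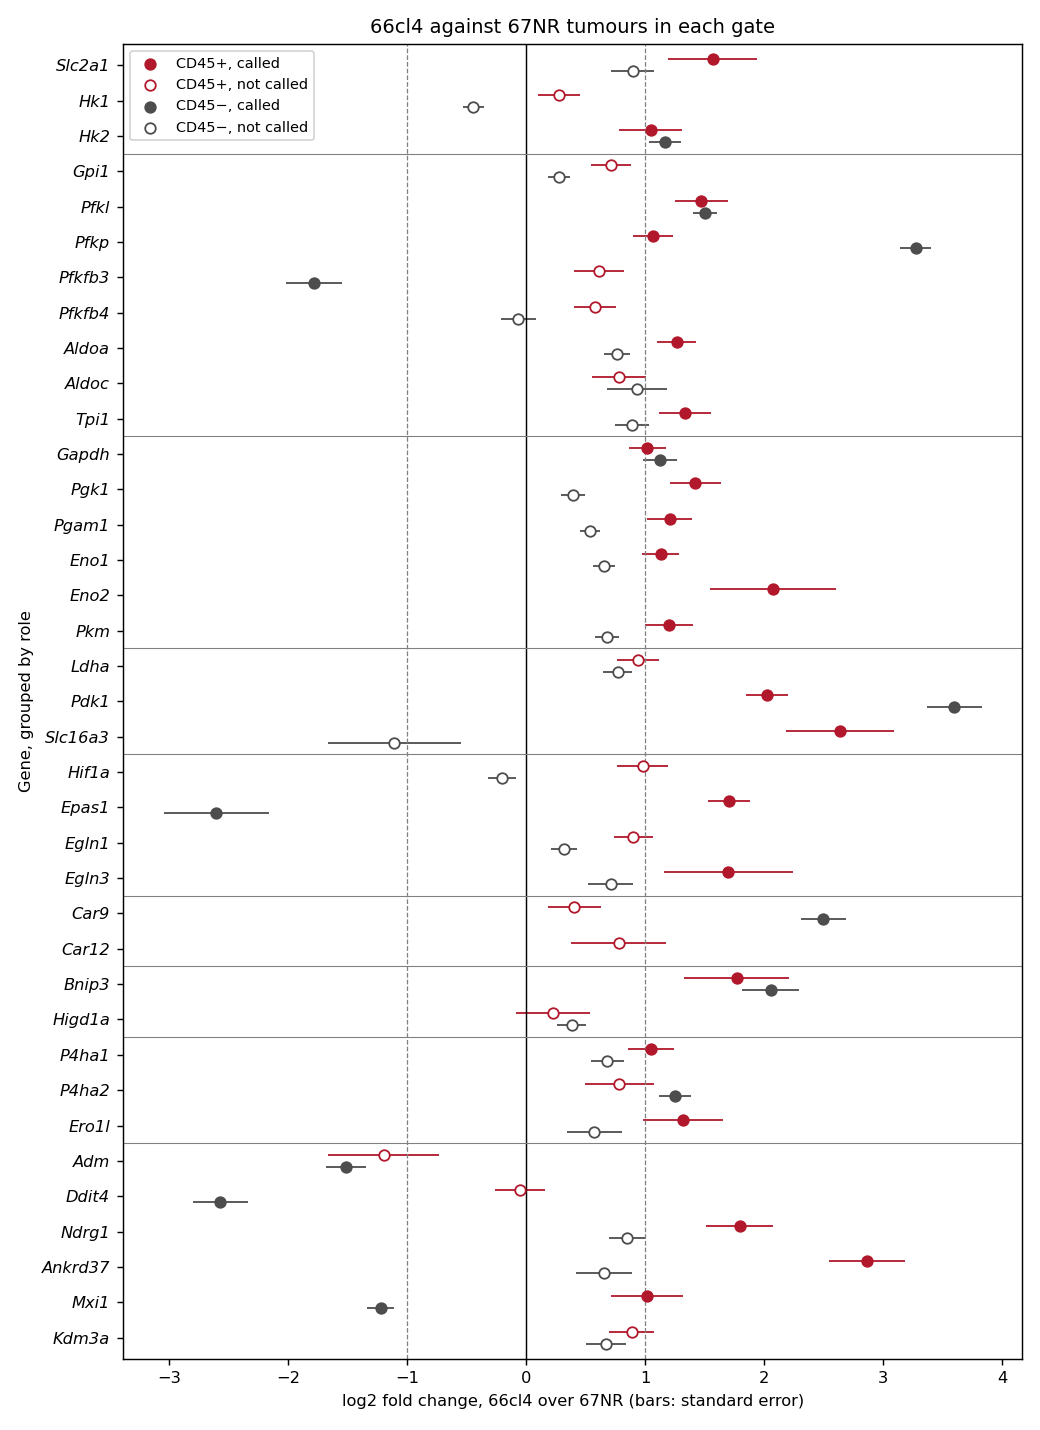
Log2 fold change of 66cl4 over 67NR (x axis) for each of the 37 genes (y axis, grouped by role) in CD45+ cells (red) and CD45− cells (grey), with standard errors as bars, filled points for called genes and dashed lines at the fold threshold. The red points lie to the right of 0 for 35 genes, and the grey points of Pfkfb3, Epas1, Adm, Ddit4 and Mxi1 are filled and lie to the left of it.

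The CD45+ groups differed most, by log2 fold change, in the 4 genes Ankrd37, Slc16a3, Eno2 and Pdk1. Their promoters are shown because a HIF dimer is known to bind a short core, ACGTG or GCGTG, in the DNA of its targets. The sequences are those of RefSeq on GRCm38.p6, from 250 bases before to 50 bases after the transcription start, written 5′ to 3′ on the strand of the gene, with capitals marking each match to ACGTG or GCGTG on either strand. Matches can overlap, as in Ankrd37, where a match on each strand shares bases.
Ankrd37, chr8:45999801-46000100, minus strand: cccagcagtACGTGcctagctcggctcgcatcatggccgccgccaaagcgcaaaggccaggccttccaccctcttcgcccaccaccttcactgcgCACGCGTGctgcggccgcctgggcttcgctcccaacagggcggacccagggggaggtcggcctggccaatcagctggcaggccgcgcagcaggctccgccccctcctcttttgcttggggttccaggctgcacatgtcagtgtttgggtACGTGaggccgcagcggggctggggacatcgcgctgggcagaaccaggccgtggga
Slc16a3, chr11:120948817-120949116, plus strand: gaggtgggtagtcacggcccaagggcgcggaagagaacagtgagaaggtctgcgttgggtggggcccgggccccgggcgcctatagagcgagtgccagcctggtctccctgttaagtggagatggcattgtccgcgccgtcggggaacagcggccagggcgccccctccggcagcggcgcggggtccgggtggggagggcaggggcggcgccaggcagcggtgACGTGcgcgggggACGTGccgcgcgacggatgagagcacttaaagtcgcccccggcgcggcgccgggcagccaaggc
Eno2, chr6:124769624-124769923, minus strand: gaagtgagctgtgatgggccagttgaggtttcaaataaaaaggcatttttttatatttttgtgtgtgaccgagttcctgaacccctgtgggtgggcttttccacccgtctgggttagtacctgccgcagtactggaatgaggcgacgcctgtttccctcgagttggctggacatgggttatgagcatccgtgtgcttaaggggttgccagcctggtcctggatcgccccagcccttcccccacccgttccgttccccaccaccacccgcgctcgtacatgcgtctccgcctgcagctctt
Pdk1, chr2:71872974-71873273, plus strand: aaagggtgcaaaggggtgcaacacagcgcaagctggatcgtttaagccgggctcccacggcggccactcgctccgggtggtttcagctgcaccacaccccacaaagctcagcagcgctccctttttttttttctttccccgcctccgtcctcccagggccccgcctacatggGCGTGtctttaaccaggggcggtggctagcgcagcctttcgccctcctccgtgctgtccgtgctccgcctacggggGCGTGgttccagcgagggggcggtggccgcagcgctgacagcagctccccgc
The windows printed for Ankrd37, Slc16a3, Eno2 and Pdk1 held 4, 2, 0 and 2 matches. Pdk1 has a second window, chr2:71874654-71874953, which is not printed and held 0. RefSeq windows were found for 35 of the 37 genes, and 31 of the 35 had at least 1 match. The 4 without one were Car12, Eno2, Gpi1 and Tpi1. Counted by window, 38 of 49 held a match (77.6%), against 14380 of all 32851 windows of the same length (43.8%), and 55.1% against 17.5% held 2 or more. The median GC content was also higher, at 64.7% against 52.7%, and the part of base composition in the share of matches was not tested. A match is a stretch of letters and not a measured binding site.

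Of the 3 genes of glucose uptake and phosphorylation, 2 were called higher in the CD45+ cells of 66cl4. Slc2a1 encodes GLUT1, the main glucose transporter of many cells. Listed here and below by rising animal number (3 to 7 for 66cl4, and 1 and 4 to 7 for 67NR), it had 6817, 3857, 6031, 4938 and 3186 normalised counts in 66cl4 CD45+ and 3117, 1981, 955, 1436 and 841 in 67NR CD45+ cells. No 67NR library reached the lowest 66cl4 library, and the log2 fold change was 1.57 ± 0.37 (SE; adjusted p = 0.0133). In CD45− cells Slc2a1 was 2030 to 2590 in 66cl4 against 909 to 1957 in 67NR, a log2 difference of 0.89 ± 0.18 that passed the p threshold alone. The gene thus stood highest in the CD45+ libraries of 66cl4, where it exceeded the CD45− level of the same mouse 1.57- to 2.91-fold in 5 of 5 mice (log2 fold change 1.10 ± 0.18, adjusted p = 0.000132).

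Hexokinases add the phosphate that keeps glucose inside the cell, and Hk2 is the form known to respond to hypoxia. Hk2 counts were 821, 418, 851, 469 and 483 in 66cl4 CD45+ and 460, 293, 258, 238 and 224 in 67NR CD45+ cells. The ranges overlapped in the 67NR library of animal 1, and the log2 fold change was 1.05 ± 0.27 (adjusted p = 0.0155). The call of Hk2 was lost without 66cl4 CD45+ animal 3 or 5 (0.90 each) or 67NR CD45+ animal 5, 6 or 7 (0.996, 0.97 and 0.95). The CD45− libraries had 372, 286, 365, 408 and 338 in 66cl4 and 212, 150, 138, 154 and 150 in 67NR, with no overlap and a log2 fold change of 1.17 ± 0.13 (adjusted p = 3.56e-06). Hk1, the widely expressed form, differed by 0.27 ± 0.18 in CD45+ cells (adjusted p = 0.298) and by −0.44 ± 0.09 in CD45− cells. The 2 effects of Hk1 differed from each other (interaction 0.72 ± 0.21, adjusted p = 0.0084).

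In upper glycolysis, which runs from glucose 6-phosphate to the triose phosphates, 4 of 8 genes were called higher in 66cl4 CD45+ cells and 0 lower. Phosphofructokinase sets the pace of the pathway, and its genes Pfkl (liver type) and Pfkp (platelet type) gave different pictures. Pfkl had 830, 431, 874, 611 and 609 normalised counts in 66cl4 CD45+ and 314, 304, 197, 194 and 206 in 67NR CD45+ cells. The CD45− counts were 849, 874, 888, 1019 and 848 in 66cl4 and 297, 314, 306, 396 and 302 in 67NR. Both gates separated the tumours without overlap, and by like amounts, with log2 fold changes of 1.47 ± 0.22 and 1.50 ± 0.10 (interaction −0.02 ± 0.24, adjusted p = 0.962).

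Pfkp, in contrast, was lowest in 67NR CD45− cells. Its counts were 2498, 1742, 2665, 1627 and 1613 in 66cl4 CD45+ and 952, 858, 820, 1059 and 1217 in 67NR CD45+ cells. The CD45− libraries had 1832, 1840, 1776, 1573 and 1584 in 66cl4 but 197, 201, 142, 220 and 147 in 67NR. The tumour effect was 1.06 ± 0.17 on the log2 scale in CD45+ and 3.27 ± 0.13 in CD45− cells (adjusted p = 0.00118 and 5.56e-11), and the interaction was −2.21 ± 0.22 (adjusted p = 1.49e-07). Without 66cl4 CD45+ animal 3 or 5 the CD45+ value of Pfkp was 0.96 or 0.95, short of the fold threshold. In 67NR tumours the CD45+ level was 4.26 to 8.24 times that of the CD45− cells of the same mouse, whereas in 66cl4 tumours it was 0.947 to 1.5 times.

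The bifunctional enzymes PFKFB3 and PFKFB4 make fructose 2,6-bisphosphate, the activator of phosphofructokinase, and their genes marked the immune gate. Pfkfb3 was 2147 to 3554 in 66cl4 CD45+ and 1389 to 2554 in 67NR CD45+ cells, which overlapped (log2 fold change 0.61 ± 0.21, adjusted p = 0.0576). In CD45− cells its counts were 37.2, 26.2, 54.9, 26.6 and 34.9 in 66cl4 and 119, 178, 100, 139 and 98.2 in 67NR, so that here the 66cl4 level was the lower one in every library (−1.79 ± 0.24, adjusted p = 1.27e-05). The CD45+ level of Pfkfb3 was 59.5 to 94.4 times the CD45− level of the same mouse in 66cl4 and 10.2 to 21.3 times in 67NR tumours. The interaction was 2.42 ± 0.32 (adjusted p = 5.04e-06). Pfkfb4 had 409 to 795 and 352 to 484 counts in 66cl4 and 67NR CD45+ cells and 63.7 to 70.8 and 61.4 to 83.6 in the CD45− cells, and it was 5.82 to 11.2 times and 4.69 to 6.56 times as high in CD45+ as in CD45− cells.

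Aldolase splits fructose 1,6-bisphosphate, and triose phosphate isomerase interconverts the products. Aldoa, its main gene here, had 16737, 10057, 16635, 13496 and 12688 normalised counts in 66cl4 CD45+ and 6545, 6128, 4447, 5854 and 6179 in 67NR CD45+ cells, which gave a log2 fold change of 1.27 ± 0.17 (adjusted p = 0.000415). Tpi1 had 5889, 3284, 8792, 6939 and 4638 against 2444, 2705, 2138, 2230 and 2243 (1.34 ± 0.22, adjusted p = 0.0015). Neither overlapped between tumours, and in CD45− cells the differences were smaller than the fold threshold, at 0.76 ± 0.11 for Aldoa and 0.89 ± 0.14 for Tpi1. Aldoc, a second aldolase gene known from brain, was low everywhere, with 81.2 to 135 and 42.9 to 94.6 counts in 66cl4 and 67NR CD45+ cells and 33.7 to 52.4 and 14.3 to 30.8 in CD45− cells. It was nevertheless called higher in CD45+ than in CD45− cells of both tumours (log2 fold change 1.30 ± 0.20 in 66cl4 against 1.46 ± 0.27 in 67NR). Gpi1, glucose 6-phosphate isomerase, was 0.71 ± 0.17 higher in 66cl4 CD45+ cells on the log2 scale, short of the fold threshold.

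In lower glycolysis, which yields ATP and pyruvate, all 6 genes were called higher in 66cl4 CD45+ cells. Pgk1, phosphoglycerate kinase, had 11957, 7190, 15748, 13850 and 9213 normalised counts in 66cl4 against 5553, 4235, 3945, 4361 and 3589 in 67NR CD45+ cells (log2 fold change 1.42 ± 0.21, adjusted p = 0.000879). Pgam1, phosphoglycerate mutase, had 10952, 6786, 13276, 9098 and 8235 against 5249, 4598, 3642, 3908 and 3616 (1.21 ± 0.19, adjusted p = 0.00121). Pkm, pyruvate kinase, had 12847, 8316, 20154, 12043 and 10516 against 5889, 6146, 4804, 5306 and 5850 (1.20 ± 0.20, adjusted p = 0.00174). In each of these genes animal 4 gave the lowest and animal 5 the highest 66cl4 library, and the tumours did not overlap. The other abundant enzymes, Eno1 (enolase) and Gapdh (glyceraldehyde 3-phosphate dehydrogenase), had log2 fold changes of 1.13 ± 0.16 and 1.02 ± 0.15, the latter close to the threshold. Pkm was 0.98 without 66cl4 CD45+ animal 5, and Gapdh 0.94 without 66cl4 CD45+ animal 3 or 6, 0.99 without 67NR CD45+ animal 4 and 0.996 without animal 5, which ended the call.

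In CD45− cells Gapdh alone of this set was called, with 31596, 23579, 24795, 30305 and 24100 counts in 66cl4 and 9858, 12490, 16989, 11398 and 12216 in 67NR (1.13 ± 0.15, adjusted p = 1.06e-05). The other abundant enzymes of the set were 0.39 ± 0.10 (Pgk1) to 0.68 ± 0.10 (Pkm) higher on the log2 scale. The tumour effect was larger in CD45+ than in CD45− cells for Pgk1 (interaction 1.05 ± 0.23, adjusted p = 0.0013), Pgam1 (0.68 ± 0.20, adjusted p = 0.0102) and Eno1 (0.49 ± 0.18, adjusted p = 0.0306). For Gapdh the interaction was −0.10 ± 0.21 (adjusted p = 0.729). Gapdh, Pgk1 and other enzymes of the pathway have near-identical pseudogene copies, among which reads may have been divided, so their counts carry that uncertainty.

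Eno2, the enolase known from neurons, was an immune-gate gene in these tumours. Its counts were 203, 164, 302, 158 and 133 in 66cl4 CD45+ and 116, 53.9, 18.3, 30 and 13.4 in 67NR CD45+ cells, which did not overlap (log2 fold change 2.07 ± 0.53, adjusted p = 0.0178). In the CD45− cells they were 6.64, 4.36, 4.16, 3.19 and 2 in 66cl4 and 7.9, 7.5, 8.78, 16.4 and 8.18 in 67NR. CD45+ exceeded CD45− by 5.51 ± 0.32 on the log2 scale in 66cl4 and by 2.21 ± 0.58 in 67NR tumours (adjusted p = 1.6e-08 and 0.00539), and the interaction was 3.34 ± 0.71 (adjusted p = 0.000876).

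At the end of the pathway, lactate dehydrogenase makes lactate, PDK1 keeps pyruvate out of the mitochondria by inhibiting pyruvate dehydrogenase, and MCT4, the product of Slc16a3, exports lactate. Ldha was 8330 to 14474 in 66cl4 against 5318 to 7248 in 67NR CD45+ cells, without overlap, and its log2 fold change of 0.94 ± 0.18 missed the fold threshold (adjusted p = 0.00319). Slc16a3 spanned 1.06 to 6346 normalised counts over the 20 libraries. Its counts were 3538, 1881, 6346, 2771 and 1572 in 66cl4 CD45+ and 943, 535, 384, 451 and 264 in 67NR CD45+ cells (log2 fold change 2.64 ± 0.45, adjusted p = 0.00261), a ratio of means of 6.25. The CD45− libraries held 5.31, 6.23, 20, 1.06 and 8.98 in 66cl4 and 10.5, 18.8, 12.3, 42.2 and 10.2 in 67NR, with overlap (−1.11 ± 0.56, adjusted p = 0.0955). CD45+ exceeded CD45− by 8.49 ± 0.58 in 66cl4 against 4.75 ± 0.47 in 67NR tumours on the log2 scale, and the interaction was 3.78 ± 0.76 (adjusted p = 0.000577). The CD45− means were 0.258% of the CD45+ mean in 66cl4 against 3.65% in 67NR tumours, beside 0.551% and 1.68% for the leukocyte genes. The same shares were 0.313% and 3.62% for the 5 neutrophil genes and 0.806% and 2.17% for the 7 macrophage and monocyte genes. The neutrophil share in 67NR did not hold for each of its genes. Cxcr2 had the most counts before normalisation in 67NR CD45− libraries, at 426 to 776 against 83 to 328 for S100a9. The log2 fold changes of CD45+ over CD45− cells ran from 1.51 to 6.09 over the neutrophil genes in 67NR tumours. The part of residual leukocytes was not tested.

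Pdk1 was high in both gates of 66cl4 tumours. It had 815, 592, 954, 909 and 736 counts in 66cl4 CD45+ and 237, 158, 155, 243 and 199 in 67NR CD45+ cells (log2 fold change 2.02 ± 0.18, adjusted p = 3.61e-05). The CD45− cells had 941, 905, 1090, 1050 and 858 in 66cl4 and 135, 78, 54.4, 89.8 and 49.1 in 67NR (3.60 ± 0.23, adjusted p = 2.2e-08). All 66cl4 libraries lay above all 67NR libraries in both gates, and the effect was larger in CD45− cells (interaction −1.56 ± 0.30, adjusted p = 0.000287). In 67NR tumours Pdk1 was 1.75 to 4.01 times as high in CD45+ as in CD45− cells of the same mouse, and in 66cl4 tumours 0.655 to 0.875 times.

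**Figure D3:**
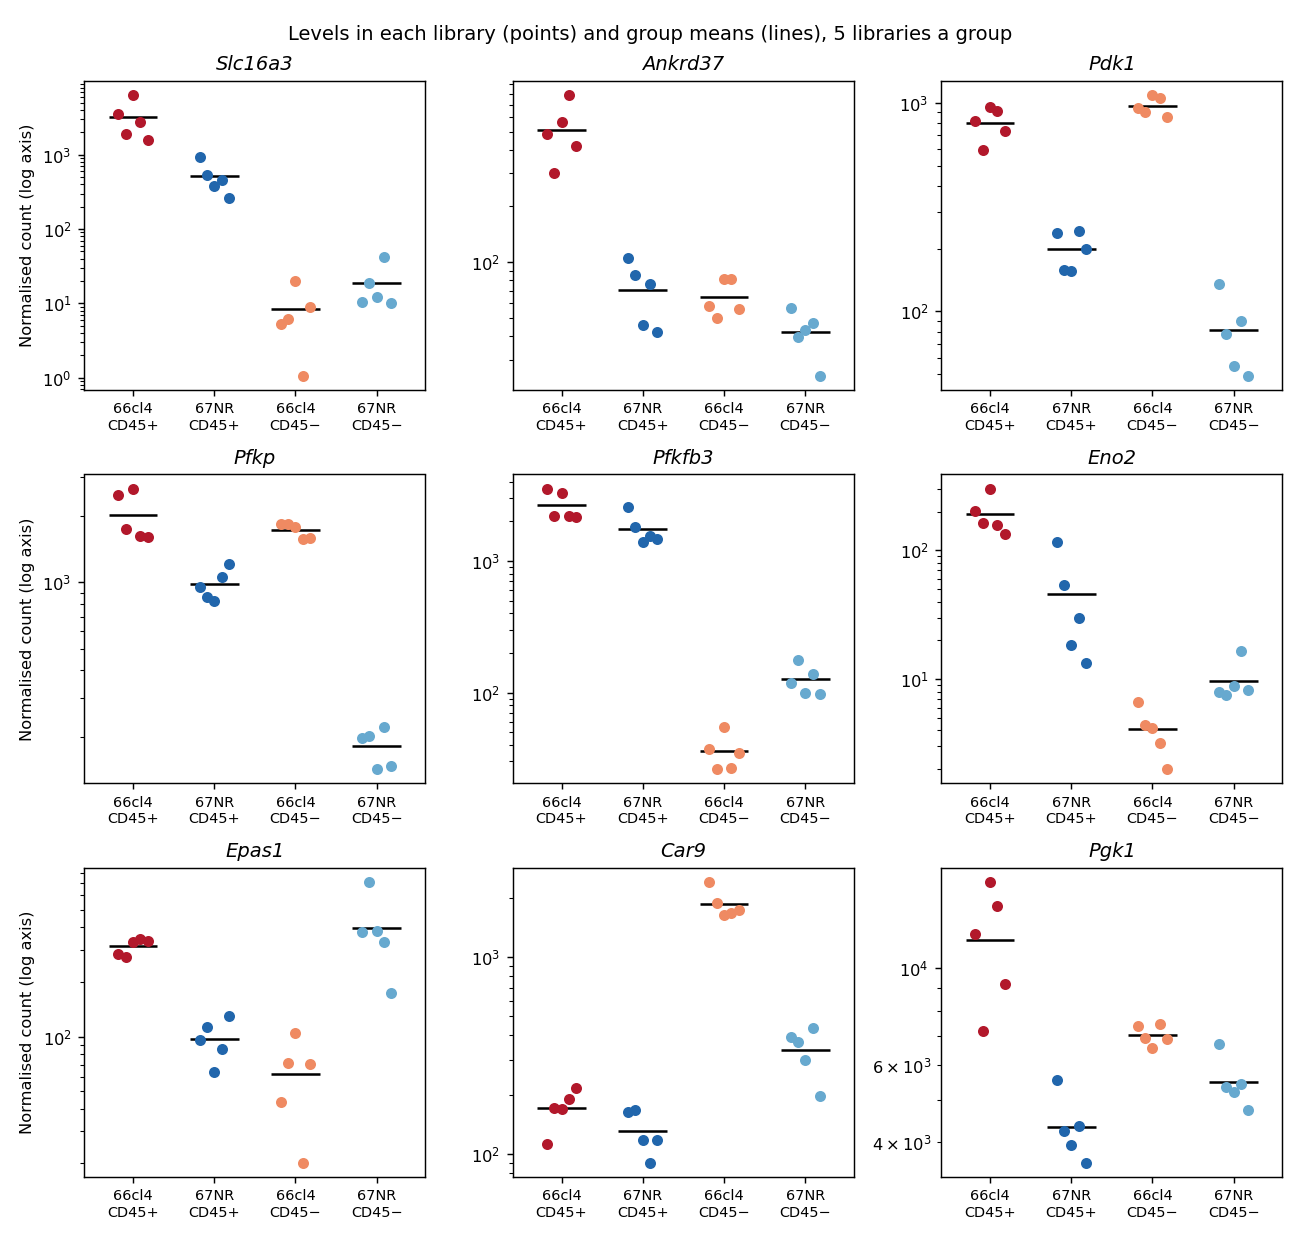
Normalised counts (log axis) of 9 genes in the 4 groups, with 1 point per library and a line at the mean of 5 libraries. Slc16a3, Pfkfb3 and Eno2 are at 54.9 counts or fewer in every 66cl4 CD45− library, Pdk1 and Pfkp are low in 67NR CD45− cells, Epas1 is high in 66cl4 CD45+ and 67NR CD45− cells, and Car9 is highest in 66cl4 CD45− cells.

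Hif1a and Epas1 encode the alpha subunits HIF-1α and HIF-2α. Hif1a was 14887 to 25044 in 66cl4 against 6798 to 13030 in 67NR CD45+ cells, without overlap, and its log2 fold change of 0.98 ± 0.21 missed the fold threshold (adjusted p = 0.00712). The CD45− levels were 3838 to 5165 and 4195 to 6346 (−0.20 ± 0.12, adjusted p = 0.136). CD45+ exceeded CD45− cells by 2.09 ± 0.16 in 66cl4 (adjusted p = 1.36e-07) and by 0.91 ± 0.19 in 67NR tumours. HIF-1α is known to be set mainly by protein stability, which these RNA data do not measure.

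Epas1 reversed its tumour order between the gates. Its counts were 284, 274, 331, 347 and 336 in 66cl4 CD45+ and 95.2, 113, 64, 85.1 and 130 in 67NR CD45+ cells (log2 fold change 1.70 ± 0.18, adjusted p = 0.000129). In CD45− cells they were 43.8, 71.7, 104, 20.2 and 70.9 in 66cl4 and 377, 712, 381, 330 and 174 in 67NR (−2.61 ± 0.44, adjusted p = 0.000389). Neither comparison overlapped, and the interaction of 4.33 ± 0.49 was the largest among the 37 genes (adjusted p = 9.51e-07). Epas1 is known from endothelium and pericytes, and the 5 endothelial genes summed to 488 to 961 normalised counts in 66cl4 against 922 to 3695 in 67NR CD45− cells, and the 3 pericyte genes to 290 to 780.0 and 739 to 3176. Most of the 66cl4 endothelial sum was Cdh5, at 388 to 841 counts before normalisation. Pecam1, Kdr, Tek and Cldn5 had 32 to 144, 4 to 30, 2 to 23 and 2 to 15 there. In 67NR CD45− libraries these had 337 to 1903, 77 to 544, 61 to 193 and 17 to 105. The part of these cells in the Epas1 result was not tested.

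Egln1 and Egln3 encode the oxygen-sensing prolyl hydroxylases PHD2 and PHD3, themselves targets of HIF. Egln3 had 2357, 1089, 2457, 1904 and 1198 counts in 66cl4 CD45+ and 1114, 855, 253, 404 and 124 in 67NR CD45+ cells. The 67NR libraries of animals 1 and 4 stood well above the other 3, the groups overlapped, and the log2 fold change of 1.70 ± 0.54 only just passed (adjusted p = 0.0464) and lost its call in 10 of 17 alternative fits, with adjusted p-values of 0.00376 to 0.139. The libraries whose removal ended it were 66cl4 CD45+ animals 3, 5, 6 and 7 (log2 fold changes of 1.58, 1.57, 1.68 and 1.81) and 67NR CD45+ animals 4, 5 and 6 (1.91, 1.51 and 1.60). Egln1 differed by 0.90 ± 0.16 in CD45+ (adjusted p = 0.00254) and by 0.32 ± 0.11 in CD45− cells.

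The carbonic anhydrases CA9 and CA12 act outside the cell and help to hold its pH, and CA9 is a widely used marker of hypoxic carcinoma cells. Car9 counts in CD45− cells were 2421, 1882, 1649, 1682 and 1753 in 66cl4 and 394, 369, 299, 437 and 196 in 67NR (log2 fold change 2.50 ± 0.19, adjusted p = 1.05e-07). The CD45+ levels were 111, 171, 170, 189 and 216 in 66cl4 and 162, 167, 118, 89.9 and 117 in 67NR, which overlapped (0.40 ± 0.22, adjusted p = 0.225), and the interaction was −2.08 ± 0.30 (adjusted p = 1.63e-05). Car9 was called lower in CD45+ than in CD45− cells of both tumours, by −3.47 ± 0.18 in 66cl4 against −1.37 ± 0.24 in 67NR. Car12 had at most 47.8 normalised counts in any library, with 16.7 to 47.8 and 7.8 to 26.7 in 66cl4 and 67NR CD45+ cells and 0 to 3.33 and 0 to 11.4 in the CD45− cells. It was called higher in CD45+ than in CD45− cells of 66cl4 (3.95 ± 0.55, adjusted p = 3e-05) and did not pass the filter in 67NR.

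Of the mitochondrial genes, Bnip3, a receptor of mitophagy and a direct HIF target, was called in both gates. It had 3099, 1746, 3944, 4638 and 2006 counts in 66cl4 CD45+ and 1683, 1168, 450, 799 and 397 in 67NR CD45+ cells (log2 fold change 1.77 ± 0.44, adjusted p = 0.0167). The CD45− cells had 2633, 2024, 2355, 3013 and 1815 against 910, 524, 411, 686 and 377 (2.06 ± 0.24, adjusted p = 1.23e-05). In both gates the 67NR library of animal 1 was the highest of its group and still lay below every 66cl4 library. Higd1a, a mitochondrial protein induced by hypoxia, was 390 to 1293 in 66cl4 against 659 to 696 in 67NR CD45+ cells (0.22 ± 0.31, adjusted p = 0.654), and its 2 highest 66cl4 libraries, 1229 and 1293, were those of animals 5 and 6. Without those 2 animals the log2 fold change of Higd1a was −0.50 (adjusted p = 0.0399).

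P4ha1 and P4ha2 encode subunits of the collagen prolyl hydroxylase, and Ero1l an oxidase that forms disulphide bonds in the endoplasmic reticulum. P4ha1 had 3153, 1863, 3106, 2283 and 2161 counts in 66cl4 CD45+ and 1519, 1470, 934, 1083 and 1089 in 67NR CD45+ cells (log2 fold change 1.05 ± 0.19, adjusted p = 0.00265). Ero1l had 9040, 5044, 9032, 7396 and 5392 against 4876, 3664, 1864, 2516 and 1424 (1.32 ± 0.34, adjusted p = 0.0172). Neither gene overlapped between the tumours. P4ha1 fell short of the fold threshold without 66cl4 CD45+ animal 3 or 5 (0.94 and 0.97) or 67NR CD45+ animal 5 or 7 (0.96 and 0.99). P4ha2 was instead called in CD45− cells, where it had 151, 147, 115, 140 and 146 counts in 66cl4 and 57, 56.3, 57.1, 68 and 62.4 in 67NR (1.25 ± 0.14, adjusted p = 1.84e-06).

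Among the genes of signalling and stress, Ankrd37, a short ankyrin-repeat protein and HIF target, had the largest difference between the CD45+ groups. Its counts were 490, 302, 563, 788 and 420 in 66cl4 CD45+ and 105, 85.7, 45.7, 76.7 and 42.2 in 67NR CD45+ cells (log2 fold change 2.86 ± 0.32, adjusted p = 0.000199), a ratio of means of 7.22. The CD45− levels were 49.9 to 81.6 in 66cl4 against 24.5 to 57 in 67NR (0.65 ± 0.23, adjusted p = 0.0233), and the interaction was 2.23 ± 0.39 (adjusted p = 0.000146). Ndrg1, a stress-responsive gene, had 4537, 3044, 7146, 4187 and 3365 against 1910, 1553, 883, 1087 and 988 in CD45+ cells (1.79 ± 0.28, adjusted p = 0.00125). Both genes separated the tumours without overlap. Kdm3a, a histone demethylase gene induced by HIF, was 1324 to 2017 in 66cl4 against 641 to 1219 in 67NR CD45+ cells (0.89 ± 0.19, adjusted p = 0.00645), short of the fold threshold.

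Mxi1, a repressor that opposes MYC, was higher in 66cl4 in one gate and lower in the other. The CD45+ counts were 1551, 984, 2122, 1201 and 867 in 66cl4 and 1032, 781, 493, 590 and 427 in 67NR, with overlap (log2 fold change 1.01 ± 0.30, adjusted p = 0.0323), and this call was lost in 8 of 17 alternative fits, with adjusted p-values of 0.00199 to 0.125. Among these were the fits without 66cl4 CD45+ animal 3 or 5 (0.95 and 0.80) and without 67NR CD45+ animal 4, 5, 6 or 7 (1.08, 0.92, 0.97 and 0.88). The CD45− counts were 392, 383, 420, 444 and 355 in 66cl4 and 1215, 945, 854, 941 and 809 in 67NR (−1.23 ± 0.11, adjusted p = 4.24e-07). The interaction was 2.26 ± 0.33 (adjusted p = 1.68e-05).

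Adm and Ddit4 were lower in the CD45− cells of 66cl4, as were Pfkfb3, Epas1 and Mxi1. Adm encodes adrenomedullin, a vasodilator peptide, and Ddit4 encodes REDD1, an inhibitor of mTORC1, and both are known hypoxia targets. In CD45− cells Adm had 381, 297, 355, 274 and 262 counts in 66cl4 and 1082, 746, 1187, 919 and 650 in 67NR (log2 fold change −1.52 ± 0.17, adjusted p = 2.65e-06). Ddit4 had 181, 141, 127, 134 and 91.8 against 570, 804, 1272, 648 and 793 (−2.57 ± 0.23, adjusted p = 7.02e-07). Both were lower in every 66cl4 CD45− library than in any 67NR CD45− library. In CD45+ cells Adm was 44.9 to 64.6 in 66cl4 and spread from 32.9 to 215 in 67NR (−1.20 ± 0.47, adjusted p = 0.0878, with 0.0144 to 0.53 over the alternative fits), and Ddit4 was 157 to 255 and 169 to 302 (−0.05 ± 0.21, adjusted p = 0.893).

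Immune and non-immune cells of one tumour differed in a few members by large factors and in most glycolytic enzymes by little. In 66cl4 tumours 12 of the 37 genes were called higher and 2 lower in CD45+ than in CD45− cells, against 23.9% and 20.5% of all 14916 genes tested. With no fold threshold 19 were higher and 5 lower, against 73% of all genes in either direction. In 67NR tumours 7 of 36 were called higher and 4 lower, against 20.2% and 19.6% of 15063 genes, and 9 and 10 passed without the fold threshold, against 67.3% of all genes. Library ranges did not overlap between the gates for 16 of 37 genes in 66cl4 and 16 of 36 in 67NR, against 61.4% and 55.5% of all genes tested. Called higher in both tumours were Pfkfb3, Pfkfb4, Aldoc, Eno2 and Slc16a3, and called lower in both were Car9 and Adm. Epas1 was called higher in CD45+ cells of 66cl4 (2.29 ± 0.31) and lower in those of 67NR tumours (−2.02 ± 0.33).

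A further 5 genes were called higher in the CD45+ cells of 66cl4 but not in those of 67NR tumours, namely Slc2a1, Hif1a, Ero1l (log2 fold change 1.37 ± 0.18), Ankrd37 (2.94 ± 0.25) and Mxi1 (1.72 ± 0.21). In 67NR tumours their values were 0.43 ± 0.36, 0.91 ± 0.19, 0.62 ± 0.36, 0.74 ± 0.31 and −0.52 ± 0.23. The difference between the tumours, which is the interaction given above, passed for Hif1a, Ankrd37 and Mxi1 and missed the threshold for Slc2a1 (0.70 ± 0.42, adjusted p = 0.184) and Ero1l (0.77 ± 0.41, adjusted p = 0.141). With the mouse as a block, which pairs the gates, the interaction passed for Slc2a1 (0.76, adjusted p = 0.0286), Ero1l (0.79, adjusted p = 0.00625) and Egln3 (1.32, adjusted p = 0.0319), and P4ha2 was called lower in CD45+ than in CD45− cells of 66cl4 (−1.02, adjusted p = 0.00822). Aldoa, Gapdh, Eno1, Tpi1, Pkm and Ldha lay between −0.14 and 0.24 in 66cl4 tumours on the log2 scale, and none of these passed there. In 67NR tumours Aldoa and Eno1 were lower in CD45+ cells, by −0.52 ± 0.12 and −0.61 ± 0.11, in 5 of 5 mice each.

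**Figure D4:**
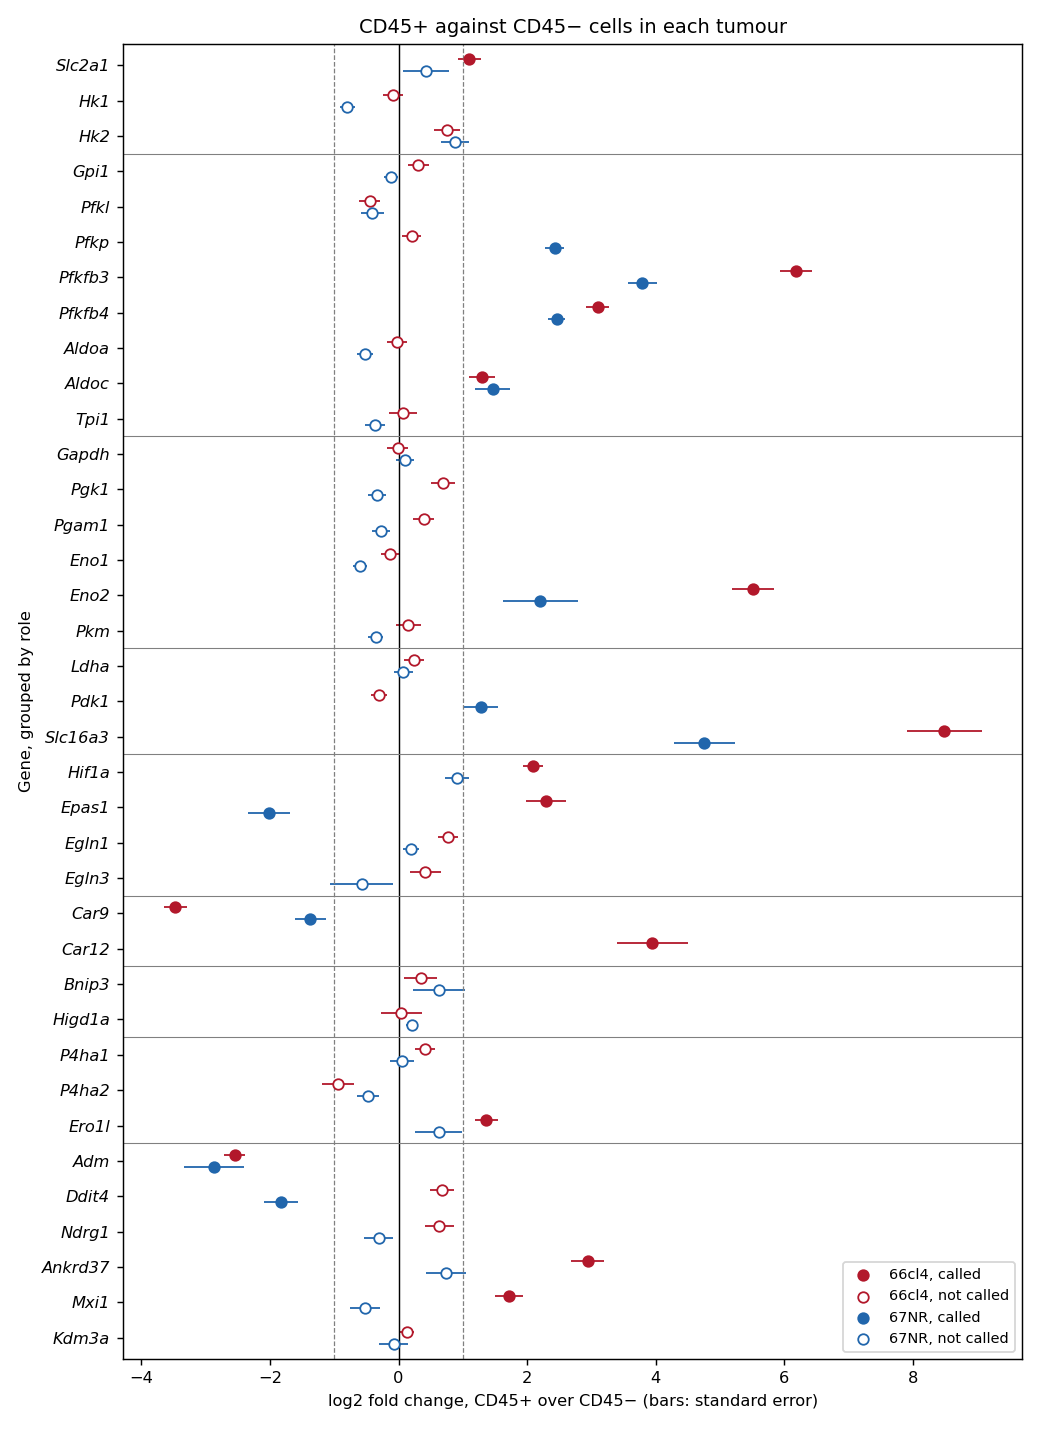
Log2 fold change of CD45+ over CD45− cells (x axis) for each of the 37 genes (y axis, grouped by role) in 66cl4 (red) and 67NR tumours (blue), with standard errors as bars, filled points for called genes and dashed lines at the fold threshold. Slc16a3, Pfkfb3 and Eno2 lie farthest to the right in 66cl4, at 8.49, 6.19 and 5.51, and the Epas1 points lie on opposite sides of 0.

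Ratios between isozymes or paralogues were taken within a library on counts + 0.5, without a size factor. Where a gene had few counts, its ratio still depends on the depth of the library. In CD45− libraries this holds for Ldhb (1 to 19 counts), Eno2 (2 to 21) and Car12 (0 to 13). The ratios were compared with two-sided exact permutation tests over the 252 divisions of 10 libraries, whose smallest p is 0.00794. The gate comparisons of ratios did not use the pairing of libraries by mouse. Of 40 tests on 10 pairs, 27 passed after Benjamini-Hochberg adjustment, and 16 without 66cl4 animals 5 and 6. Without those animals the 66cl4 gate comparison had too few libraries for any p under 0.05. Its tests, some of them among the 27, were therefore left out when the 16 were counted. The log2 ratio of Hk2 to Hk1 counts was −0.22 ± 0.28 (SD, n = 5) in 66cl4 against −1.01 ± 0.54 in 67NR CD45+ cells (exact adjusted p = 0.047), and −1.03 ± 0.25 and −2.65 ± 0.36 in CD45− cells (exact adjusted p = 0.0132). The share of Hk2 was thus higher in 66cl4 than in 67NR tumours in both gates and higher in CD45+ than in CD45− cells in both tumours.

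For phosphofructokinase, the log2 ratio of Pfkp to Pfkl was 1.61 ± 0.25 (SD, n = 5) in 66cl4 CD45+, 2.03 ± 0.48 in 67NR CD45+ and 0.94 ± 0.19 in 66cl4 CD45− cells, and it fell below 0 only in 67NR CD45− cells, at −0.84 ± 0.23. The 67NR CD45− value differed from that of 66cl4 CD45− and of 67NR CD45+ cells (exact adjusted p = 0.0132 each), whereas the CD45+ groups were not told apart (exact adjusted p = 0.131). Pfkfb3 to Pfkfb4 was 2.18 ± 0.16 and 2.10 ± 0.38 in the CD45+ groups of 66cl4 and 67NR (exact adjusted p = 0.683), with −0.97 ± 0.40 in 66cl4 against 0.77 ± 0.39 in 67NR CD45− cells (exact adjusted p = 0.0132).

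Lactate dehydrogenase B, which favours the reaction towards pyruvate, had few counts beside Ldha. Ldhb to Ldha was −7.55 ± 0.58 (SD, n = 5) in 66cl4 against −6.15 ± 0.24 in 67NR CD45+ cells, and −11.90 ± 0.91 and −9.05 ± 0.41 in CD45− cells. Each of the 4 comparisons of this pair passed (exact adjusted p = 0.0132), with the lower ratio in 66cl4 tumours and in CD45− cells. Epas1 to Hif1a was −3.88 ± 0.71 in 67NR CD45− cells and between −6.68 ± 0.62 and −5.95 ± 0.38 in the other groups. The pair Egln3 to Egln1 gave no difference that passed (exact adjusted p = 0.113 to 0.172).

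**Figure D5:**
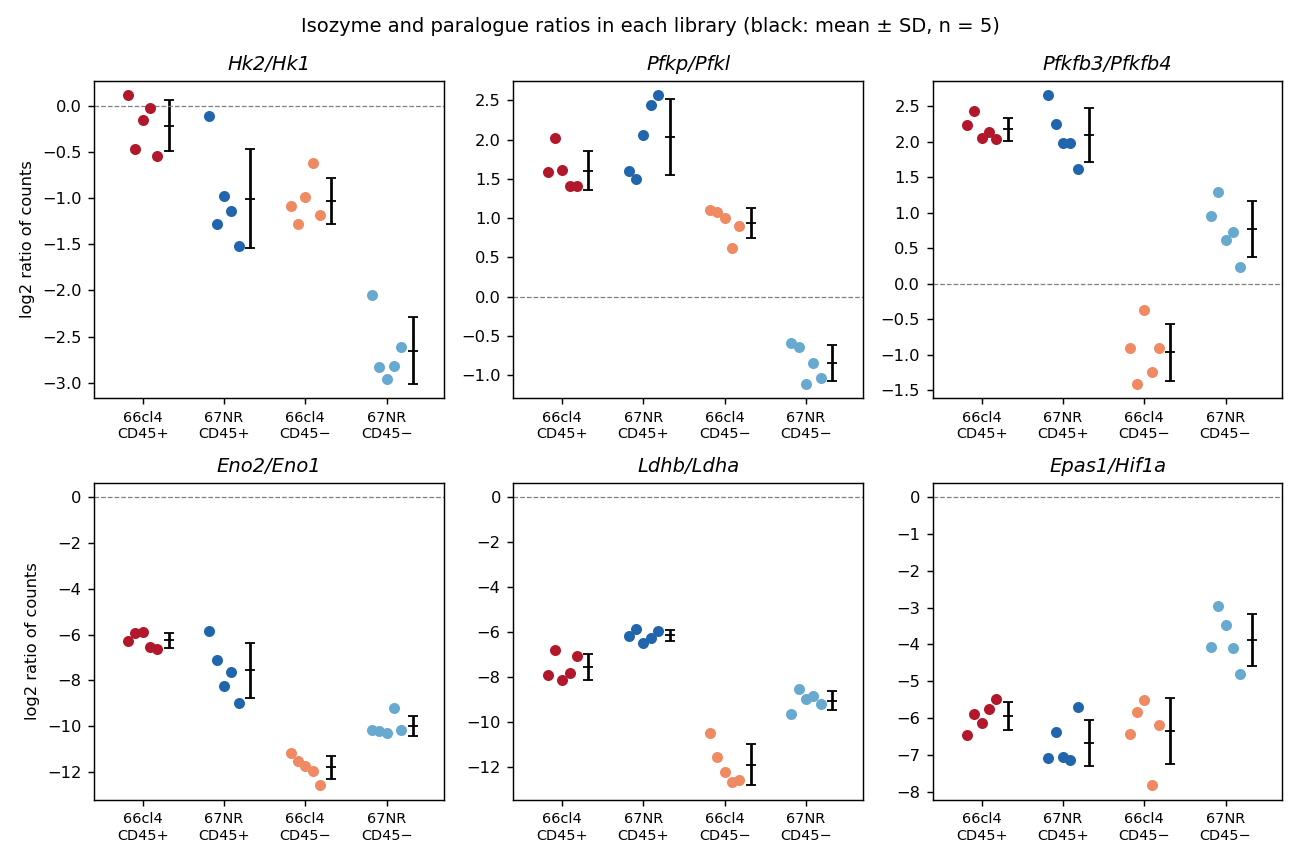
Log2 ratio of counts for 6 pairs of isozymes or paralogues in each library (points), with mean ± SD of 5 libraries in black and a dashed line where both genes have equal counts. The Pfkp to Pfkl points lie below 0 in 67NR CD45− cells alone, and the Pfkfb3 to Pfkfb4 points lie below 0 in 66cl4 CD45− cells alone.

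Taken per length (TPM, from reference transcript lengths), Gapdh had the highest level of the 37 genes in each group, with 1666 ± 256 TPM (SD, n = 5) in 66cl4 CD45+, 829 ± 122 in 67NR CD45+, 1685 ± 210 in 66cl4 CD45− and 764 ± 137 in 67NR CD45− cells. Aldoa followed in each group, at 724 ± 151, 299 ± 46.1, 735 ± 110 and 427 ± 21.9 TPM. Eno1 and Ldha stood next, and within 67NR CD45+ cells Aldoa and Ldha (297 ± 24) did not differ beyond their spread. Car12 was the lowest in each group, at 0.651 TPM or less on average.

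The 17 genes from Slc2a1 to Pkm, which cover glucose uptake, the glycolytic enzymes and their PFKFB regulators, took 0.454 to 0.713% of the counts of a library in 66cl4 CD45+ (median 0.567%) and 0.246 to 0.309% in 67NR CD45+ cells (median 0.293%). The CD45− shares were 0.522 to 0.636% (median 0.557%) and 0.302 to 0.375% (median 0.34%). The tumours did not overlap in either gate. The spread was widest in 66cl4 CD45+ cells, where the median coefficient of variation of the 37 genes was 26.7%, against 12.8% in 66cl4 CD45− cells, 25.1% in 67NR CD45+ and 21.2% in 67NR CD45− cells. Among the 67NR libraries, animal 1 had the highest level of its group for 20 of the 37 genes in CD45+ and for 18 in CD45− cells.

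A further 55 genes of the same pathways were counted in the same way. In CD45+ cells 48 were tested, and 7 were called higher and 3 lower in 66cl4, beside 5.01% and 6.82% of all genes. The largest log2 fold changes were those of Ak4, a mitochondrial adenylate kinase (2.81 ± 0.40), Angptl4, a lipase inhibitor (−2.15 ± 0.46), Vegfa, the angiogenic growth factor (2.00 ± 0.46), Plod2, a collagen lysyl hydroxylase (−1.83 ± 0.39), and Pygl, glycogen phosphorylase (1.80 ± 0.26). In CD45− cells 49 were tested, and 12 were called higher and 11 lower, beside 13.2% and 18.9%. Here Arnt2, a partner of HIF alpha (5.38 ± 0.26), and Ak4 (5.03 ± 0.19) were higher in 66cl4, and Pdk4 (−3.60 ± 0.63) and Stc1 (−3.38 ± 0.47) were lower. Before normalisation Arnt2 had 2 to 7 and Ak4 5 to 9 counts in 67NR, and Pdk4 had 0 to 5 in 66cl4 CD45− libraries. The fold changes of Arnt2, Ak4 and Pdk4 therefore rest on few counts in the lower group. Ppp1r3c, a glycogen-targeting subunit, had 147 to 220.3 normalised counts in 66cl4 against 0 to 1.56 in 67NR CD45− cells, and its fitted value of 8.18 ± 0.38 therefore depends on the prior count of the fit.

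Of the same 55, the gate comparison called 13 of 50 tested higher and 17 lower in CD45+ cells of 66cl4, and 9 of 49 higher and 12 lower in those of 67NR. The shares over all genes were 23.9% and 20.5% in 66cl4 and 20.2% and 19.6% in 67NR. The largest values in 66cl4 belonged to Pygl (7.53 ± 0.46), the lactate and pyruvate carrier Slc16a7 (7.03 ± 0.46), the myeloid hexokinase Hk3 (6.87 ± 0.42), the glucose transporter Slc2a3 (6.62 ± 0.31) and the nuclear receptor Rora (4.71 ± 0.23). In 67NR Slc16a7 (5.22 ± 0.29), Hk3 (5.01 ± 0.43), Pygl (4.21 ± 0.40) and Slc2a3 (3.65 ± 0.20) were again among the largest, with Stc1 (−3.28 ± 0.67). The interaction passed with a value above 0 for 11 and below 0 for 16 of 51 tested, beside 21.9% and 21.2% of all genes, led by Arnt2 (−4.54 ± 0.48), Pygl (3.35 ± 0.62), Rora (3.25 ± 0.27), Vegfa (3.18 ± 0.49) and Stc2 (−3.14 ± 0.64). Vegfa had 2012 to 6343 normalised counts in 66cl4 against 300.4 to 1658 in 67NR CD45+ cells, and 767 to 1382 and 2156 to 2822 in the CD45− cells, so its order between the tumours was opposite in the gates.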

How the data were processed

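Sorted CD45+ and CD45− cells of 66cl4 and 67NR tumours were sequenced as single reads after mRNA library preparation, in 20 libraries. The authors deposited estimated counts per gene, made with Salmon 1.3.0 and summed to genes with tximport after bcl2fastq 2.2.20, and 15.1 to 18.0% of the values of a library were not whole. The submitters' notes name GRCh38, although the gene identifiers are mouse, and no coordinates of genes were taken from them. Estimated counts were rounded. Symbols were found for 51492 of 52783 identifiers.

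Comparisons used edgeR 4.0.16 (quasi-likelihood test, TMM, filterByExpr with a minimum count of 10 and total of 15, robust) in R 4.3.3, with Benjamini-Hochberg adjustment over all genes tested. The tumours were compared within each gate and the gates within each tumour, on the 10 libraries concerned, and the interaction was fitted on all 20. Alternatives were DESeq2 1.42.0, RLE size factors, other filters, other thresholds, all 20 libraries in each fit, a replicate block, and omission of single libraries or of 66cl4 animals 5 and 6. Normalised counts are counts divided by DESeq2 size factors. TPM used the median length of basic protein-coding transcripts. Isozyme ratios used counts + 0.5. Scripts ran in Python 3.11.15 with scipy 1.17.1. The edgeR comparison between groups was the only step tested on simulated counts. Replicate libraries differed beyond sampling noise in all 40 pairs (chi-square per degree of freedom 12.3 to 153).

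Libraries with the same tumour and animal number come from 1 mouse, and their deviations correlated at 0.0251 to 0.148 in 66cl4 and −0.00326 to 0.324 in 67NR. Between tumours animals share only a number. Members with a call and among the 4 largest absolute log2 fold changes of their role are given by library, other members by range, and other pathway genes where among the 5 largest called. The 37 genes, the lists and the tests were chosen with earlier results of these data known.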

Additional observations from a re-analysis of the deposited data

Results flagged for a closer look

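In 7 of 148 groups of 5 libraries, 1 library stood apart by Dixon's test at the 95% level, and chance gives about 7.4, or 1 in 20. Slc2a1 had 1957 normalised counts in 67NR CD45− animal 1, against 909 to 1212 in the other 4. Hk2 had 212 in that library, against 138 to 154. In 67NR CD45− animal 6, Pfkl had 396 (others 297 to 314), Eno2 had 16.4 (others 7.5 to 8.78) and Slc16a3 had 42.2 (others 10.2 to 18.8). Pfkl had 1019 in 66cl4 CD45− animal 6, against 848 to 888, and P4ha1 had 2266 in 66cl4 CD45− animal 3, against 1681 to 1779.

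The tumour effect differed between the gates for 19 genes by the edgeR interaction test. The log2 fold change of 66cl4 over 67NR was the more positive in CD45+ cells for Epas1 (4.33), Slc16a3 (3.78), Eno2 (3.34), Ddit4 (2.53), Pfkfb3 (2.42), Mxi1 (2.26), Ankrd37 (2.23), Hif1a (1.20), Pgk1 (1.05), Ndrg1 (0.97), Hk1 (0.72), Pgam1 (0.68), Pfkfb4 (0.65), Egln1 (0.59), Aldoa (0.51) and Eno1 (0.49). It was the more positive in CD45− cells for Pfkp (−2.21), Car9 (−2.08) and Pdk1 (−1.56). Of these, Aldoa, Eno1, Pfkfb4, Egln1, Ndrg1 and Pgam1 missed the threshold in 19, 16, 10, 8, 5 and 3 of 26 alternative fits. No cause of these differences was tested.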

How the results depend on the processing

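The count of genes called between the CD45+ groups was 22 and became 9 without 66cl4 animals 5 and 6, where fewer libraries were fitted. The isozyme tests that passed went from 27 to 16, and here those of the 66cl4 gate comparison were left out for want of libraries. With no fold threshold, 32 genes passed in CD45− cells, 24 in the 66cl4 and 19 in the 67NR gate comparison, and 12 interactions passed with an absolute log2 value over 1. Leaving out 1 library at a time gave 16 to 25 calls in CD45+, 13 to 14 in CD45−, 14 to 15 and 11 to 13 in the 66cl4 and 67NR gate comparisons, 13 to 21 interactions and 24 to 29 isozyme tests. The replicate block gave 20, 13, 15, 11 and 22 calls, and beside the calls given with it above it ended those of Pfkp (0.96), Gapdh (0.96) and Egln3 (2.34) in CD45+ and of Gapdh (0.997) in CD45− cells, and it added Hif1a (1.03) in CD45+ and Slc2a1 (1.11) in CD45− cells. DESeq2 gave 23, 14, 14, 12 and 20 calls, the first with Adm as 1 lower call. Between tumours the block pairs animals by number alone.

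The results whose sign changed were not called, though Higd1a had adjusted p-values of 0.0399 and 0.0323 without animals 5 and 6. Without animals 5 and 6 Higd1a was −0.50 between the CD45+ groups, and the 66cl4 gate values were −0.57 for Higd1a, −0.23 for Tpi1 and −0.10 for Pkm. Under the replicate block those of Tpi1 and Higd1a were −0.00033 and −0.11. In the same comparison Aldoa was 0.029, 0.041 and 0.0087, and Gapdh 0.042, 0.054 and 0.022, with DESeq2, RLE size factors and all 20 libraries. The Pfkl interaction was 0.0029 with RLE size factors. With TPM the ratio differences were −0.11 for Aldoc/Aldoa in CD45−, 0.0071 for Car9/Car12 in CD45+ and −0.19 for Epas1/Hif1a in the 66cl4 gate comparison. Leaving out single libraries, the values ran from −0.022 to 0.40 for Higd1a, −0.16 to 0.063 for Ddit4 and −0.039 to 0.22 for Pfkfb3/Pfkfb4 between the CD45+ groups. In the 66cl4 gate comparison they ran from −0.22 to 0.023 for Hk1, −0.095 to 0.11 for Aldoa, −0.12 to 0.26 for Tpi1, −0.087 to 0.13 for Gapdh, −0.22 to 0.012 for Eno1, −0.068 to 0.32 for Pkm and −0.20 to 0.26 for Higd1a. In 67NR they ran from −0.014 to 0.19 for Ldha, −0.048 to 0.16 for P4ha1 and −0.23 to 0.11 for Kdm3a. As interactions they ran from −0.36 to 0.086 for Hk2, −0.24 to 0.079 for Pfkl, −0.39 to 0.059 for Aldoc, −0.00037 to 0.23 for Ldha and −0.49 to 0.067 for Bnip3. The causes were not tested. Car12 and Eno2 in CD45− cells were removed by the filter on low counts.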
